A study of Mus musculus with 8 samples.

Results

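Arginine is cut by arginases into urea and ornithine, and ornithine decarboxylase turns ornithine into putrescine, the first of the polyamines. Spermidine and spermine are then built from putrescine by adding aminopropyl groups, and these small cations bind nucleic acids and are needed for cell growth and division. The cell limits them by antizyme, which binds ornithine decarboxylase and sends it to the proteasome, and by acetylation, which marks polyamines for oxidation or export. The genes described here are the 7 named Arg1, Arg2, Odc1, Srm, Sms, Sat1 and Oaz1, each found through every probe set whose only platform symbol is that gene. Of these 7 genes 6 had such a probe set, 9 probe sets in all, out of 45101 probe sets and 18193 genes on the array. Sms, encoding spermine synthase, had none, since its 3 probe sets also carry the symbol of its pseudogene, and it is given no value. Oaz1 had 1 further probe set that shares its symbol with a pseudogene, which was left out for the same reason.

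The arrays compared blastocysts (embryonic day 4.5, 120 h after human chorionic gonadotropin, n = 4) with 8-cell embryos (embryonic day 2.5, 66 h, n = 4). All were wild-type whole embryos of strain B6D2F1, taken as 1-cell zygotes and grown in KSOM medium under 5% CO2 and 5% O2, and both stages thus share that culture. By its title, the series concerns AP-2 gamma, a transcription factor, and its place in tight junction and cavity formation. The blastocyst is the hollow embryo with an outer trophectoderm and an inner cell mass, and the 8-cell embryo comes before these lineages separate.

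Values are signal intensities on a linear scale, and differences are blastocyst minus 8-cell of log2(signal + 16). The standard error (SE) is from limma, which fits a linear model to each probe set and shares information on the variance across probe sets. A call means an adjusted p (Benjamini-Hochberg over the 28229 probe sets tested) under 0.05. The genes were chosen on earlier results of this same stage comparison, in which Arg1 was among the largest falls, so their differences are given as a description with no p-value. The arrays read whole embryos, so fewer cells that express a gene and less RNA per cell cannot be told apart, and signals are scaled per array, so they are not amounts per embryo. Whether the 4 replicates of each stage were separate collections is not in the labels. The p-values thus set a difference against a spread between these arrays that may be only technical. The number of arrays limits the precision.

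The summed signal of 5 trophectoderm markers was 66835 to 75233 in blastocysts and 2820 to 3365 in 8-cell embryos, and that of 5 oocyte and early embryo markers was 314 to 533 in blastocysts and 21704 to 25475 in 8-cell embryos. The 5 inner cell markers summed to 13698 to 16271 in blastocysts and 13097 to 15464 in 8-cell embryos, with Nanog, Sox2 and Sox17 called higher in blastocysts and Pou5f1 and Gata6 called lower. Of 6 leukocyte markers, a list taken because macrophages express Arg1, the summed signal was 406 to 566 in blastocysts and 362 to 501 in 8-cell embryos, Cd68, Csf1r and Adgre1 were above the 40th percentile of all 8 arrays and not called, and Mrc1 was called higher (0.92, SE 0.29, limma adjusted p = 0.0175). Itgam was under that percentile on each array, and Ptprc lay between 2.11 and 31.6 in blastocysts and between 1.30 and 9.10 in 8-cell embryos. The 4 hepatocyte markers with a probe set, taken because liver makes arginase 1 for the urea cycle, summed to 239 to 564 in blastocysts and 313 to 346 in 8-cell embryos. Of these, Apoa2 was called higher (0.69, SE 0.20, limma adjusted p = 0.0120), Alb and Tat were not called, and Cps1 was too dim to be tested. The 5 cumulus markers summed to 306 to 418 in blastocysts and 6396 to 10002 in 8-cell embryos. Most of that was Amhr2, at 243 to 328 in blastocysts and 6358 to 9881 in 8-cell embryos. The highest blastocyst signal was 36.6 for Has2, 20.4 for Ptx3, 23.5 for Tnfaip6 and 55.5 for Fshr. In 8-cell embryos the highest was 19.9 for Has2, 37.0 for Ptx3, 25.3 for Tnfaip6 and 86.9 for Fshr. The 3 erythroid markers with a probe set summed to 70.1 to 131 in blastocysts and 31.8 to 67.2 in 8-cell embryos. Klf1 was called higher (0.67, SE 0.24, limma adjusted p = 0.0281) with overlapping stages, and Hba-a1 and Alas2 were too dim to be tested. The part of Amhr2 and of these other lists in the results was not tested. The 3' minus 5' difference of the Actb control probe sets, a measure of RNA length after amplification, was 0.69 to 0.92 log2 units in blastocysts and 2.23 to 2.68 in 8-cell embryos, and its part in the results was not tested either. The 8-cell columns hold at most 1 decimal and the blastocyst columns mostly more, so a difference in file preparation and the stage cannot be told apart.

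Upstream sequence was at hand for 3 of the 6 genes, from RefSeq on the GRCm38.p6 build. It is shown because the study is about an AP-2 factor. The sequences run 5′ to 3′ on the gene's strand over the 250 bases before the annotated start. Capitals mark the AP-2 palindrome GCCNNNGGC and the GC box GGGCGG on either strand, and the E-box CACGTG, the site of MYC and related factors, was searched in the same way.

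Odc1, plus strand, chr12:17544623-17544872: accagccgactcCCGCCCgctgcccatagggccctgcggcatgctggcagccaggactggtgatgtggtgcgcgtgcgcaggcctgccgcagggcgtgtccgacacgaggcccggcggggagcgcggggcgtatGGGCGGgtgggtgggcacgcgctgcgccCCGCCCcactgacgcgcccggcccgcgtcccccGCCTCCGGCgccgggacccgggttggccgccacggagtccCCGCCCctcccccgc

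Sat1, minus strand, chrX:155216450-155216699: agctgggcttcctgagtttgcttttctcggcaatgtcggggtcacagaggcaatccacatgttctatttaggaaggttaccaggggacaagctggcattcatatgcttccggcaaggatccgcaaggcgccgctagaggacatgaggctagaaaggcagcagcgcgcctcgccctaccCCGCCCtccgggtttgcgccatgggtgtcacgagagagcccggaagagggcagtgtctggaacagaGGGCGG

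Oaz1, plus strand, chr10:80826406-80826655: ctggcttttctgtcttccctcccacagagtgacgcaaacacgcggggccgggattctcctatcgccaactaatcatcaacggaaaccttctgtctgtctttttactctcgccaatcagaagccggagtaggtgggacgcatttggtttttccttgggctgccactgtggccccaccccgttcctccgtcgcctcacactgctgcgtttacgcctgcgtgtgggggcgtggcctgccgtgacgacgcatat

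The Odc1 window held 1 AP-2 palindrome, GCCTCCGGC, whose first base lies 55 bases before the start, and 4 GC boxes, at 238, 116, 88 and 15 bases before it. None of these matches overlap. The Sat1 window held 2 GC boxes, 72 and 6 bases before the start, and no AP-2 palindrome. The Oaz1 window held neither, and the E-box was in none of the 3 windows. These windows end at the start, so sites after it were not searched. Of 32851 promoter windows of the same length in the RefSeq table, 13.7% held the AP-2 palindrome, 32.7% the GC box and 6.02% the E-box. G and C made up 80.0% of the Odc1 window, 59.6% of that of Sat1 and 58.0% of that of Oaz1. A match is a description of these letters and shows no binding.

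All 9 probe sets were lower in blastocysts, with differences from -0.55 to -6.48 and a median of -1.13, against a median of -0.01 over the 28229 probe sets tested. The arginases lay furthest below 0, and the polyamine enzymes and antizyme lay between 1.46-fold and 2.38-fold lower. Each of the 9 passed the filter on dim probe sets (4 or more of the 8 arrays with a signal over that array's 40th percentile), Arg1 and the dimmer Arg2 probe set only through the 8-cell arrays. Each was called lower, where 32.8% of all tested probe sets were, and none was called higher, where 33.6% were. The 4 blastocyst arrays lay below the 4 8-cell arrays for each of the 9, as for 29.8% of all tested probe sets. Since the genes were chosen on this comparison, nothing is read from these counts.

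**Figure D1:**
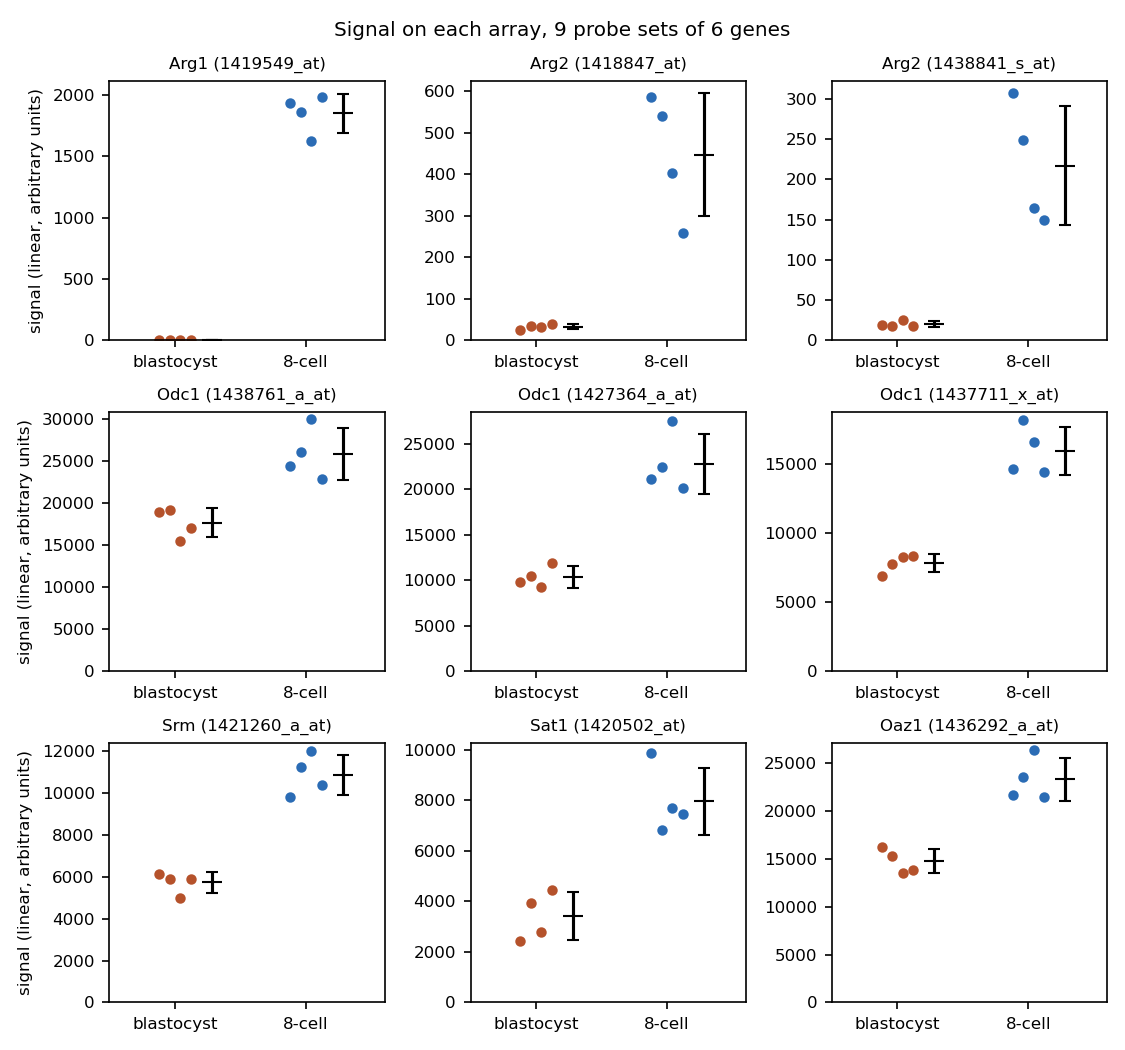
Signal (linear, arbitrary units, y axis from 0) of each of the 9 probe sets on the 4 blastocyst arrays (orange) and the 4 8-cell arrays (blue), with the mean and SD of each stage in black beside the points. The stages do not overlap in any panel, and Arg1 lies near 0 in blastocysts against a mean of 1849 in 8-cell embryos.

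Arg1 encodes the cytosolic arginase known from liver and macrophages. Its probe set (1419549_at) gave 4.46, 6.95, 4.54 and 3.44 on the blastocyst arrays, against 1930, 1857, 1625 and 1986 on the 8-cell arrays. The 8-cell arrays were close together and the blastocyst arrays were all near the bottom of the scale, so the stages were far apart. The difference was -6.48 (SE 0.13), and 0.0425% of tested probe sets had a lower one. The blastocyst values were under the 40th percentile of each array, which lay at 28.3 to 34.3, so the size rests on the added 16 and was -8.33 with 1 added and -4.79 with 64 added. With the blastocyst arrays set to their 40th percentile and 16 still added, the difference was -5.32, or 39.99-fold lower. That size also rests on the added value.

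Arg2 encodes the mitochondrial arginase. Its brighter probe set (1418847_at) gave 24.2, 34.3, 33.3 and 39.8 in blastocysts, against 585, 540, 403 and 259 in 8-cell embryos. Its other probe set (1438841_s_at, of a type that can match more than 1 gene) gave 18.8, 18.2, 25.9 and 18.0 in blastocysts, against 307, 248, 164 and 149 in 8-cell embryos. The stages did not overlap on either, and both put the 8-cell arrays in the same order, with replicate 1 highest and replicate 4 lowest. On the log2 scale the spread in 8-cell embryos was wider than for Arg1, with an SD of 0.51 for the brighter Arg2 probe set and 0.13 for Arg1. The differences were -3.19 (SE 0.24) and -2.64 (SE 0.22). On 3 of 4 blastocyst arrays the brighter probe set was above the 40th percentile and the other on none, so both sizes depend on the added 16, from -3.68 with 1 added to -2.35 with 64 added for the brighter and from -3.32 to -1.70 for the other. With the blastocyst arrays at their 40th percentile and 16 still added, the second probe set was 4.83-fold lower.

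By the root mean square difference between log2 profiles centred on their own means, over the 8 arrays, the 3 genes most like Arg1 were Tnfsf13b (0.23), Oog3 (0.26) and Omt2b (0.26). Their means were 30.8, 0.98 and 6.88 in blastocysts, against 5625, 1597 and 1954 in 8-cell embryos. Omt2b is also among the oocyte and early embryo markers above. The 3 most like Arg2 were Ly96 (0.20), Parp8 (0.21) and Csnk2a1 (0.23). Their means were 140, 184 and 605 in blastocysts, against 1116, 1514 and 5308 in 8-cell embryos. Choosing genes by these profiles fixes a fall of like size in blastocysts, so nothing is read from the falls.

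Odc1 encodes ornithine decarboxylase, the rate-limiting and short-lived enzyme of the pathway. The probe set 1438761_a_at gave 18973, 19187, 15525 and 17136 in blastocysts, against 24413, 26114, 30102 and 22920 in 8-cell embryos. The probe set 1427364_a_at gave 9777, 10526, 9252 and 11916 in blastocysts, against 21138, 22441, 27507 and 20127 in 8-cell embryos. The probe set 1437711_x_at, of a type whose probes may cross-hybridise, gave 6891, 7758, 8255 and 8344 in blastocysts, against 14637, 18120, 16519 and 14361 in 8-cell embryos. The stages did not overlap on any of them, and the gene kept a strong signal in blastocysts on all 3. The differences were -0.55 (SE 0.14), -1.13 (SE 0.15) and -1.02 (SE 0.14), so the brightest probe set gave the smallest. Its values lie nearest the top of the arrays' range (highest signal 26330 to 41397), and whether this limits its difference was not tested. With the mean of the 3 probe sets the gene gave -0.90.

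Srm encodes spermidine synthase, which adds an aminopropyl group to putrescine. Its probe set (1421260_a_at) gave 6158, 5911, 4970 and 5877 in blastocysts, against 9827, 11235, 12017 and 10376 in 8-cell embryos. The highest blastocyst array lay well below the lowest 8-cell array, and the difference was -0.92 (SE 0.13).

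Sat1 encodes the spermidine and spermine acetyltransferase, whose level is known to respond to polyamines. Its probe set (1420502_at) gave 2439, 3955, 2775 and 4444 in blastocysts, against 9881, 6810, 7679 and 7457 in 8-cell embryos. The stages did not overlap, and the blastocyst arrays were more scattered than for the other bright genes, with an SD of 951 at a mean of 3403. The difference was -1.25 (SE 0.22), 2.38-fold lower.

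Oaz1 encodes antizyme, whose full-length protein is made by a ribosomal frameshift that polyamines promote, a step that arrays do not read. Its probe set (1436292_a_at) gave 16242, 15257, 13564 and 13853 in blastocysts, against 21701, 23574, 26409 and 21499 in 8-cell embryos. The stages did not overlap, and the difference was -0.66 (SE 0.13), 1.58-fold lower. The enzyme gene Odc1 and the gene of its inhibitor were thus both lower, and the difference of Oaz1 lay within the range of the 3 Odc1 probe sets.

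Odc1, Srm, Sat1 and Oaz1 are read by bright probe sets. Of 1464 tested probe sets with a mean log2 signal at least as high as that of Sat1, a limit set after the values were seen, 47.6% were called lower and the median difference was -0.29, against 32.8% and -0.01 over all tested probe sets. The 6 probe sets of Odc1, Srm, Sat1 and Oaz1 each lay below that median, from which nothing is read, since the genes were chosen on this comparison. Of all tested probe sets, from 15.1% (for Sat1) to 31.7% (for the brightest Odc1 probe set) had a lower difference than these. With scaling to the hybridisation spike-ins, the median of all tested probe sets moved to 0.29, and the calls of Oaz1 (-0.31, SE 0.22) and of the brightest Odc1 probe set (-0.19, SE 0.21) were lost, while the other 7 probe sets were still called lower. Odc1, Srm and Oaz1 are read only by probe sets of the types _a_at or _x_at, which can match several transcripts or related sequences.

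**Figure D2:**
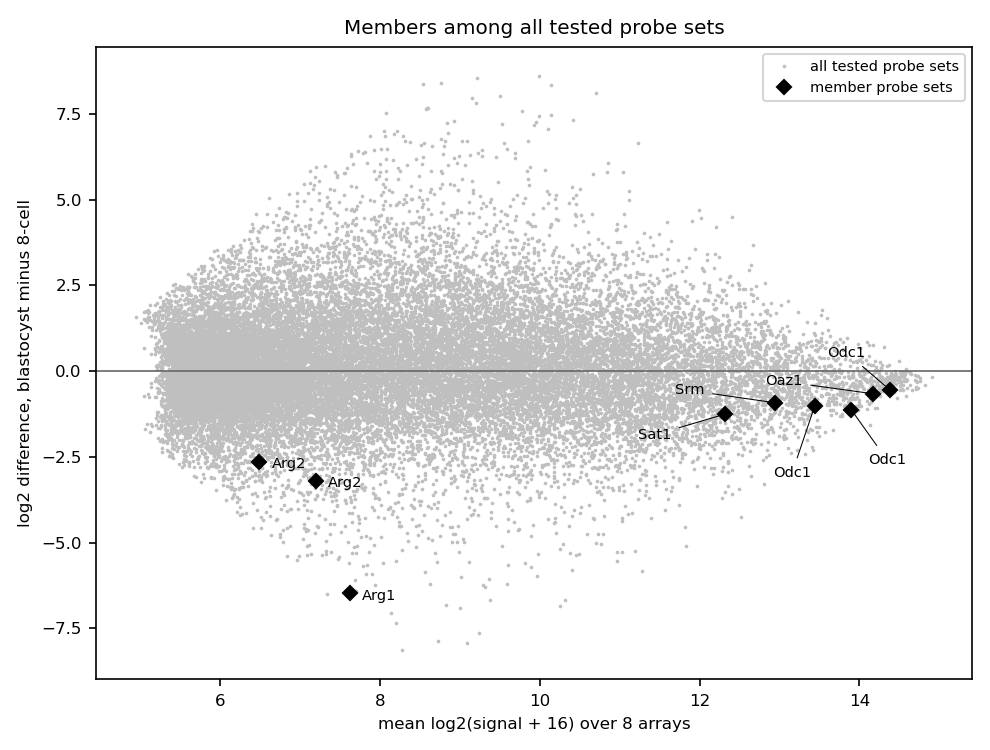
Difference between the stages (blastocyst minus 8-cell, log2 of signal + 16) against mean log2 signal over the 8 arrays for the 28229 tested probe sets (grey) and the 9 member probe sets (black diamonds). Arg1 lies at the lower edge of the cloud at -6.48, and Odc1, Srm, Sat1 and Oaz1 lie among the brightest probe sets between -0.55 and -1.25.

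**Figure D3:**
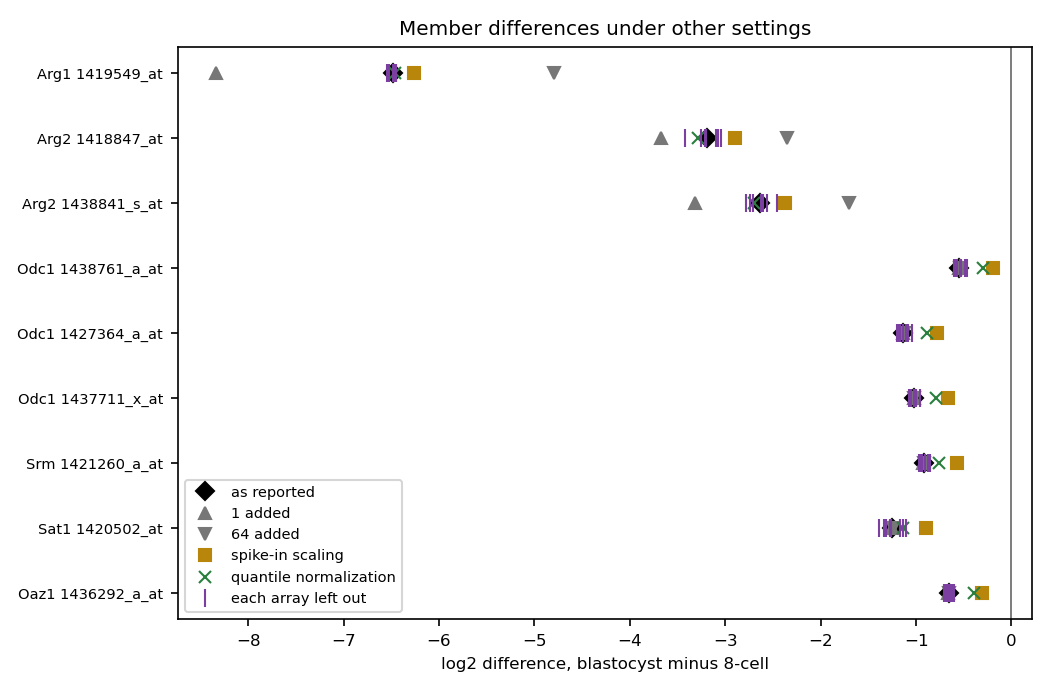
Difference of each of the 9 probe sets (blastocyst minus 8-cell, log2 scale) as reported and with other settings. All points lie left of 0, the arginases move most with the added value (Arg1 from -8.33 to -4.79), and the bright genes move towards 0 with quantile normalization and spike-in scaling.

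The rest of the pathway did not go one way. Of 52 other genes listed by role, 46 had a probe set of their own and 41 were tested, each by its brightest probe set. By limma 19 rose in blastocysts, 16 fell and 6 did not pass, with a median difference of 0.12. Over all 13276 genes taken this way, 36.9% rose and 33.6% fell, with a median of 0.02. The list was written with earlier results of these data known. With spike-in scaling the 19 that rose were all still called, and 7 of the 16 that fell. The falls named below thus hold on that scale only for Nags, Agmat, Mat2b, Sat2, Atp13a3, Eif5a2 and Dhps. That scaling moved the median of all tested probe sets from -0.01 to 0.29. Such a shift favours rises, so nothing is read from the 19 that kept their call.

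Of 8 tested genes that carry arginine or ornithine across membranes, 5 rose, 1 fell and 2 did not pass. Over all genes 36.9% rose and 33.6% fell. Slc7a1, encoding the cationic amino acid transporter CAT-1, was at 8082, 4862, 5655 and 3831 in blastocysts, against 55.4, 15.5, 115 and 47.9 in 8-cell embryos. The blastocyst arrays were all far above the 8-cell arrays, with a difference of 6.36 (SE 0.39, limma adjusted p = 5.63e-07). The difference was 3.28 (SE 0.26) on its second tested probe set. With its probe sets averaged, including a probe set too dim to be tested, it was 3.39. Slc7a3, a related transporter, rose by 4.53 (SE 0.26, limma adjusted p = 3.27e-07), to 1251 ± 360 in blastocysts, against 38.4 ± 14.0 in 8-cell embryos (SD, n = 4 each). Both lay above the 40th percentile on 3 of 4 8-cell arrays. Slc7a7 and Slc7a6, encoding light chains of the exchangers that carry basic amino acids, rose by 2.59 (SE 0.25) and 1.62 (SE 0.13), and Slc3a2, their shared heavy chain, by 1.38 (SE 0.19). Slc7a2, a further cationic transporter, fell by 0.64 (SE 0.17, limma adjusted p = 0.00731), and its other tested probe sets gave -1.54 and -1.12. Slc25a15, the mitochondrial ornithine carrier, did not pass at 1609 ± 54.1 in blastocysts and 1526 ± 367 in 8-cell embryos, although a dimmer probe set of it was called lower (-1.31, SE 0.20), and Slc25a29 did not pass, although a second probe set of it was called higher (0.44, SE 0.17). Slc25a2 was too dim to be tested.

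Ornithine can also be made from glutamate or turned into it and into proline. The 4 tested genes of these steps all rose, where 36.9% did over all genes. Aldh18a1, encoding the synthase of pyrroline-5-carboxylate, gave 7608, 4493, 6803 and 6054 in blastocysts, against 54.2, 52.3, 53.1 and 110 in 8-cell embryos. No array of one stage came near the other, and the difference was 6.26 (SE 0.24, limma adjusted p = 4.52e-08). Its 4 other probe sets gave 3.46 to 5.28. Oat, encoding ornithine aminotransferase, rose by 2.56 (SE 0.13), to 5022 ± 542 in blastocysts, against 835 ± 41.9 in 8-cell embryos (SD, n = 4 each). Pycr3, a pyrroline-5-carboxylate reductase listed on the array as Pycrl, rose by 2.05 (SE 0.26), and Prodh, encoding proline dehydrogenase, by 1.93 (SE 0.22).

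Among 8 tested genes of arginine synthesis and of other uses of arginine, 3 rose, 3 fell and 2 did not pass, near the shares over all genes given above (36.9% and 33.6%). Agmat, encoding agmatinase, which makes putrescine from agmatine, gave 63.4, 75.4, 56.6 and 102 in blastocysts, against 827, 675, 733 and 574 in 8-cell embryos. Each blastocyst array was far below each 8-cell array (8.02-fold lower, SE of the log2 difference 0.19, limma adjusted p = 5.46e-07). Asl, encoding argininosuccinate lyase, which releases arginine, rose by 2.40 (SE 0.19). Nags, encoding the synthase of the activator of the urea cycle, fell by 2.27 (SE 0.31). It was above the 40th percentile on 2 of 4 blastocyst arrays, and its size depends on the added value (-3.05 with 1 added and -1.43 with 64 added). Ddah1, encoding an enzyme that breaks down methylated arginines, rose by 1.22 (SE 0.17), and of its 4 other tested probe sets 3 were called higher and 1 was not called (-0.50). Nos1 and Nos3, encoding nitric oxide synthases, differed by 0.60 (SE 0.14, limma adjusted p = 0.00397) and -0.70 (SE 0.14, limma adjusted p = 0.00153), and with the mean of its probe sets Nos1 gave -0.16. Ass1 and Ddah2 did not pass, and Otc, Cps1, Gatm and Nos2 were too dim to be tested. Otc and Cps1 encode the mitochondrial steps of the urea cycle, and the brightest Otc probe set was at most 15.1 in blastocysts and at most 20.5 in 8-cell embryos.

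Among genes that supply the aminopropyl group or recycle its remnant to methionine, 4 rose and 2 fell among 6 tested. The shares over all genes were 36.9% and 33.6%. Mri1, Apip, Mtap and Adi1, all of the salvage route, rose by 1.83 (SE 0.17), 1.70 (SE 0.18), 1.26 (SE 0.18) and 1.08 (SE 0.18). All 4 Mtap probe sets were called higher, but a dim Mri1 probe set gave -0.51 (SE 0.21) and another Adi1 probe set -0.37 (SE 0.25), neither called, and with the mean of their probe sets Mri1 gave 0.66 and Adi1 0.62. Mat2b, a regulatory subunit of the enzyme that makes S-adenosylmethionine, fell by 1.81 (SE 0.15), to 1029 ± 151 in blastocysts, against 3625 ± 360 in 8-cell embryos (SD, n = 4 each). Enoph1, also of the salvage route, fell by 0.86 (SE 0.14) on its brightest probe set and gave 0.08 (SE 0.14) on another, with -0.39 for their mean. Amd1, encoding the decarboxylase that makes the aminopropyl donor, had no probe set of its own, nor had Amd2 or Mat2a.

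The relatives of antizyme differed among themselves. Oaz2, a second antizyme, fell by 0.90 (SE 0.13, limma adjusted p = 0.000132; -0.56 when its probe sets were averaged), while Oaz3, known from testis, did not pass and was at 24.4 ± 7.09 in blastocysts and 34.7 ± 22.0 in 8-cell embryos. Azin1 and Azin2 encode antizyme inhibitors, which resemble ornithine decarboxylase without its activity and bind antizyme in its place. Azin2 gave 519, 574, 546 and 373 in blastocysts, against 73.5, 96.0, 63.9 and 93.6 in 8-cell embryos. It rose by 2.40 (SE 0.18, limma adjusted p = 1.86e-06), with no overlap of the stages. The average of its probe sets gave 1.14, but the others were too dim to be tested. Azin1 fell by 0.38 (SE 0.13, limma adjusted p = 0.0286, from 2.55e-05 to 0.938 over the alternatives) on its brightest probe set and gave -2.43 (SE 0.15) on another. The call on the brightest was lost without blastocyst replicate 2 (-0.30), 8-cell replicate 1 (-0.36) or 8-cell replicate 4 (-0.35).

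Of 2 tested genes of polyamine breakdown, Sat2, a relative of Sat1 in sequence, fell by 2.14 (SE 0.32, limma adjusted p = 0.000202), and Smox, encoding spermine oxidase, rose by 0.78 (SE 0.20, limma adjusted p = 0.00736). Both were dim. Smox lay at 101 to 128 in blastocysts and 38.9 to 91.8 in 8-cell embryos. Sat2 lay at 24.2 to 83.0 in blastocysts and 170 to 336 in 8-cell embryos, and was above the 40th percentile on 2 of 4 blastocyst arrays. Paox had no probe set of its own. Among transporters of polyamines, Atp13a3 gave 1755, 2591, 2168 and 1841 in blastocysts, against 13204, 13124, 13908 and 12572 in 8-cell embryos. It fell by 2.67 (SE 0.15, limma adjusted p = 3.36e-07) on this probe set, and its other probe sets gave -3.34 (SE 0.14) and 0.15 (SE 0.14), so its probe sets disagree. Slc18b1, encoding a vesicular carrier, fell by 0.87 (SE 0.26, limma adjusted p = 0.0127), with overlapping stages, and Atp13a2, of the lysosome, did not pass at 909 ± 49.0 in blastocysts and 884 ± 120 in 8-cell embryos (SD, n = 4 each), while a dimmer probe set of it was called higher (0.93, SE 0.22).

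Spermidine is also used to make hypusine, a modified residue of the translation factor eIF5A. The 4 tested genes of this step fell on their brightest probe sets, where 33.6% did over all genes. Eif5a2, a second gene of the factor, fell by 1.86 (SE 0.16), and the average of its probe sets gave -1.16. Dhps, encoding the enzyme that transfers the spermidine part, fell by 0.92 (SE 0.16, limma adjusted p = 0.000534). Dohh, which completes the residue, fell by 0.38 (SE 0.14, limma adjusted p = 0.0403), with overlapping stages, and by its dimmer probe set gave -0.90 (SE 0.17). Eif5a, the main gene of the factor, fell by 0.35 (SE 0.13, limma adjusted p = 0.0413), to 19064 ± 968 in blastocysts, against 24357 ± 2932 in 8-cell embryos (SD, n = 4 each), while its second probe set was not called (-0.09, SE 0.15), with overlapping stages. The limma adjusted p over all alternatives ran from 0.0009 to 0.921 for Dohh and from 0.00258 to 0.983 for Eif5a. The call of Dohh was lost without each of blastocyst replicates 1 to 3 and 8-cell replicates 1, 3 and 4 (-0.41 to -0.32), and that of Eif5a without any 1 array other than 8-cell replicate 4 (-0.37 to -0.27).

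MYC proteins are known activators of Odc1. Mycn rose by 3.53 (SE 0.23, limma adjusted p = 6.67e-07), to 3625 ± 513 in blastocysts, against 309 ± 107 in 8-cell embryos. Its dimmer probe sets gave 1.64 (SE 0.31, called higher) and -0.74 (SE 0.43, not called), and their mean with the brightest 1.48. Myc fell by 0.81 (SE 0.23, limma adjusted p = 0.0103), to 849 ± 264 in blastocysts, against 1448 ± 154 in 8-cell embryos (SD, n = 4 each).

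**Figure D4:**
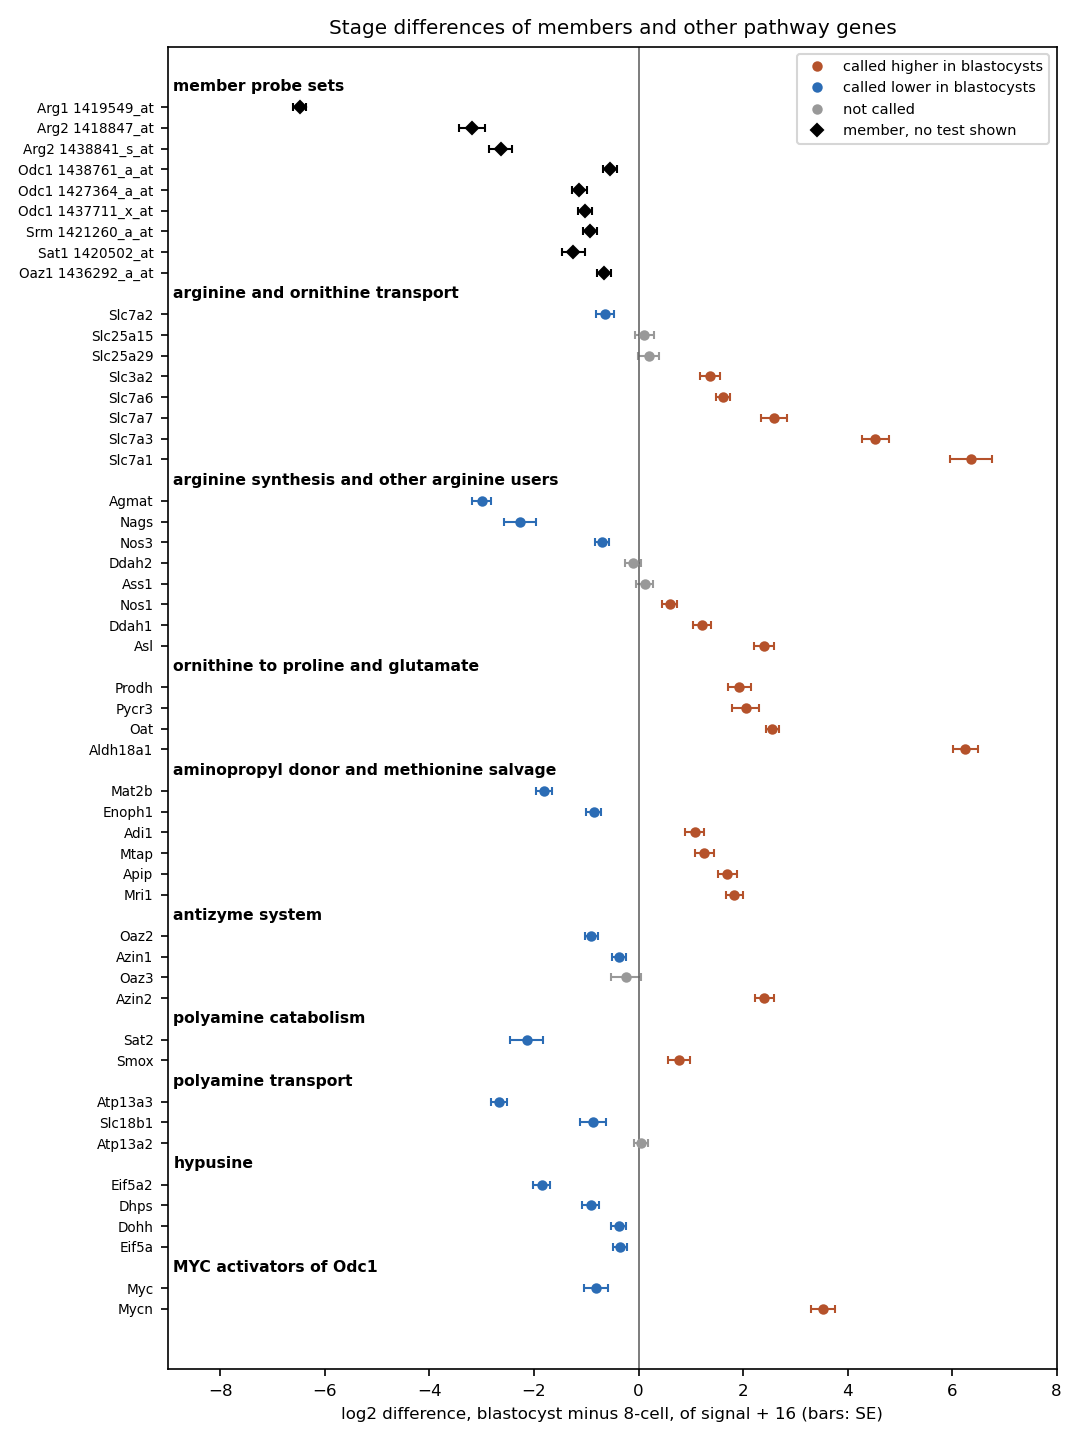
Differences between the stages (blastocyst minus 8-cell, log2 of signal + 16, bars are SE) of the 9 member probe sets (black diamonds) and, by role, of the 41 other tested pathway genes (orange, called higher in blastocysts; blue, called lower; grey, not called). The members all lie left of 0, the largest rises are those of Slc7a1 (6.36) and Aldh18a1 (6.26), and the 4 hypusine genes lie left of 0.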

How the data were processed

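Signal intensity on a linear scale was deposited for 8 arrays, 4 of blastocysts and 4 of 8-cell embryos. Per the labels' protocols, the RNA was amplified with a small-sample assay and labelled with biotin. No label or file header names the software that made the intensities (not given in the sources used). The deposited intensity values had a mean of 500 on each array after removal of 2% at each end. Samples were grouped by title. Signals became log2(signal + 16) on the deposited scale. Control probe sets (64) were left out, and probe sets above the array's 40th percentile on at least 4 of 8 arrays (28229) were tested with limma 3.58.1 in R 4.3.3 (lmFit, eBayes, no covariates), with Benjamini-Hochberg adjustment over all of them and a threshold of 0.05.

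Genes were named by probe sets with 1 symbol (34945; 932 had several and 9160 were not listed). Pathway genes were read by the probe set with the highest mean log2 value. The members and lists were chosen with earlier results of these data known. The text names all members, up to 4 called genes of each role with the largest difference, those needed to account for the role, and the 3 probe sets with the profiles most like Arg1 and Arg2, leaving out _x_at probe sets and clone or model names. Further genes were named after their values were seen. Replicate numbers did not pair the arrays (correlations of deviations -0.03 to -0.01). Alternatives were other scalings, filters, added values and variance models, gene-level fits, other probe set types, a replicate block and leaving out each array. Plots used Python 3.11.15 and matplotlib 3.10.9.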

Additional observations from a re-analysis of the deposited data

Results flagged for a closer look

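In 100 groups of 4 arrays (50 probe sets of the genes above in each stage), 6 had an array set apart from the other 3 by Dixon's criterion at its 95% level, and chance alone gives about 1 in 20. Of the members, the dimmer Arg2 probe set was at 25.9 on blastocyst replicate 3, against 18.0 to 18.8 on the other blastocyst arrays. Among the other pathway genes, Ass1 was low on blastocyst replicate 4 (39.7, against 60.1 to 61.4), Asl on blastocyst replicate 3 (693, against 773 to 778) and Eif5a on blastocyst replicate 3 (17622, against 19384 to 19660). Mtap was high on blastocyst replicate 1 (2901, against 2046 to 2140), and Aldh18a1 on 8-cell replicate 4 (110, against 52.3 to 54.2).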

How the results depend on the processing

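All 9 member probe sets kept a negative difference in each of the 21 alternatives in which they could be read, and the number called lower was 9 in each that kept all 9 except spike-in scaling, where it was 7. Gene-level fits read 6 members, all called lower, and without _x_at, _s_at and _a_at probe sets 3 were left to test, all called lower. Spike-in scaling gave 5921 probe sets lower in all, against 9253, and 7 pathway genes lower, against 16, and 64.9% of all calls were higher, against 50.6%. The fit with 1 probe set for each gene called 4978 higher and 4541 lower, and that on the mean of all probe sets of each gene 4725 and 4441, since both test fewer features. Leaving out each array gave 8917 to 9300 higher and 8643 to 9091 lower probe sets, 9 lower members, and 19 higher and 13 to 15 lower pathway genes. Of 849 pathway gene results under the alternatives 804 kept both sign and call, 38 lost the call and 2 gained one (Slc25a15 and Atp13a2, 0.40, both with the mean of their probe sets). The sign turned in 8: Eif5a with spike-in scaling (0.0061), Slc25a15 (-0.60) and Nos1 (-0.16) with the mean of their probe sets, and 5 that were called in neither fit, which were Ddah2 with spike-in scaling (0.24), Atp13a2 with quantile normalization (-0.15), Slc25a15 (-0.03) and Atp13a2 (-0.02) without 8-cell replicate 2, and Oaz3 without 8-cell replicate 3 (0.0040). The cause was not tested. With the replicate block, whose numbers mark no shared origin in the labels, 9263 probe sets were higher and 8923 lower, all 9 members were called lower, and 19 pathway genes were higher and 13 lower. Signals under the 40th percentile of an array limit the size of the arginase differences.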
